A study of Rattus norvegicus with 8 samples.

Results

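Collagens, laminins and the proteases that cut them were followed across 8 rat kidney allografts, taken 24 h after transplantation. The genes were chosen by name: every gene spelled as a collagen, a laminin chain, a matrix metalloproteinase other than Mmp8, an ADAMTS or ADAMTS-like protein or a lysyl oxidase, together with Fn1, Sparc, Postn, Lum, Dcn, Bgn, Timp2 and Timp3. The rule named 138 probes of 97 genes among the 41012 probes of the array. Of these, 108 probes of 80 genes were measurable, meaning that 1 group or more had both of its arrays well above background, out of 24462 genes measurable in all. The spelling also took Cert1, whose older symbol Col4a3bp names a lipid transfer protein and not a collagen. It is counted among the 80 genes, and without it the median difference in anti-IL6R minus high-difference grafts was 0.63 in place of 0.61.

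All kidneys came from Dark Agouti (DA) donors and were placed in male Lewis (LEW) recipients, an MHC-incompatible strain, whose own kidneys had both been removed. Each graft spent 25 min at 4 °C in University of Wisconsin solution. The anti-IL6R group had donors 20 to 50% lighter than their recipients, and its recipients received 500 µg of a neutralizing antibody against the interleukin-6 receptor right after surgery. The prednisolone group had the same weight difference and a single dose of 15 mg/kg of this glucocorticoid. The high-difference group had the same weight difference and no drug. The low-difference group had donors 0 to 20% lighter than their recipients and no drug. Each group had 2 biological replicates. No ungrafted kidney and no graft within 1 strain was analysed here, so every level below is that of an allograft.

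Collagens form the fibrils and networks of the extracellular matrix. Fibrillar collagens, type VI collagen and small proteoglycans such as decorin and lumican fill the space between the tubules and are made mainly by fibroblasts and pericytes. Type IV collagen and laminins, which are trimers of an alpha, a beta and a gamma chain, form the basement membranes under tubular epithelium, endothelium and podocytes. Matrix metalloproteinases (MMPs) and ADAMTS proteases cut these proteins, TIMPs inhibit them, and lysyl oxidases crosslink collagen and elastin. In the kidney, injured tubular cells are known to switch on some of these genes within hours, and deposition of interstitial collagen is a feature of later graft fibrosis.

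Levels are log2 processed signals relative to the 75th percentile of each array, so a level of 0 is that percentile. Levels of different genes come from different probes and were not set against each other. Differences are log2 differences of group means ± standard error, 2 arrays against 2, with p-values from a limma fit of all 8 arrays adjusted over 24462 genes. Between 64.5% and 74.0% of the gene spots of an array were well above background. No measurable probe of these genes was saturated. Both untreated groups lay on 1 slide and both treated groups on another, with separate scans. In a treated against an untreated group, drug and slide therefore cannot be told apart, whereas the comparison of high with low difference and that of the 2 drugs each lie within 1 slide. The 3 comparisons that involve high-difference grafts share those 2 arrays. Replicates of these genes differed by a median of 0.21 in the anti-IL6R group, 0.57 in the prednisolone group, 0.62 in the high-difference group and 0.72 in the low-difference group. The array of high-difference replicate 2 was the lowest of the 8 for 29 of the 80 genes and the highest for 11, where it was the lowest for 15.8% and the highest for 28.9% of all genes. Neither anti-IL6R array was the lowest for any of the 80 genes, where these arrays were the lowest for 7.28% and 12.3% of all genes.

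No gene passed the adjusted threshold in any comparison. More of the 80 genes had a higher than a lower mean in anti-IL6R than in high-difference grafts, and fewer of them had a higher than a lower mean in high-difference than in low-difference grafts. In all 4 comparisons 0 of 24462 genes (0%) passed an adjusted p of 0.05, and so 0 of the 80 genes did. A fit with trend and robust variance also gave 0 genes, and quantile normalization gave 2 to 7 genes per comparison, none of them among the 80. At an unadjusted p under 0.05, 28 of the 80 genes were higher and 3 lower in anti-IL6R than in high-difference grafts, where 7.09% of all genes were higher and 10.6% lower. The corresponding counts were 7 higher and 5 lower in prednisolone against high-difference grafts (4.25% and 7.58% of all genes), and 6 higher and 13 lower in high-difference against low-difference grafts (8.24% and 6.43%). Between the drugs, 12 were higher and 0 lower in anti-IL6R than in prednisolone grafts (2.58% and 0.822%, or 3.4% either way).

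Counting genes whose 2 arrays in one group all lay beyond those of the other gives the same directions. In anti-IL6R against high-difference grafts, 50 of 80 genes were higher without overlap and 13 lower, where 23.5% and 36.3% of all genes were. In prednisolone against high-difference grafts the counts were 20 higher and 12 lower, beside 13.9% and 25% of all genes. In high-difference against low-difference grafts they were 17 higher and 25 lower, beside 33.5% and 23% of all genes. In anti-IL6R against prednisolone grafts they were 39 higher and 5 lower, beside 11.9% and 14.3% of all genes. A gene that is measurable only where it is high was bound to differ. The counts of anti-IL6R against high-difference grafts are therefore also given over the 60 of the 80 genes that were well above background on all 8 arrays. The counts of the other comparisons, and those at an unadjusted p under 0.05, were taken over all 80 and can include such genes. They also include genes that were not well above background in either group compared, such as Col23a1 in high minus low and Adamts13 in prednisolone minus high. Over those 60 genes, 41 were higher and 9 lower without overlap in anti-IL6R than in high-difference grafts, against 20.2% and 39.7% of the 20314 genes well above background on all 8 arrays.

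A mean difference above 0 was found for 60 of the 80 genes in anti-IL6R minus high-difference grafts (43.2% of all genes), 50 in prednisolone minus high (42.4%), 30 in high minus low (56%) and 61 in anti-IL6R minus prednisolone (48.1%). These counts and the medians below were taken over all 80 and can include genes measurable only where they are high. With only probes well above background on all arrays, which leaves fewer genes, the counts were 46, 40, 20 and 45 in the same order. The median difference of the 80 genes was 0.61 in anti-IL6R minus high-difference grafts, where that of all genes was -0.09. It was 0.33 in prednisolone minus high-difference grafts (all genes, -0.08), -0.33 in high-difference minus low-difference grafts (0.07) and 0.45 in anti-IL6R minus prednisolone grafts (-0.01). Without high-difference replicate 2, the median of prednisolone minus high was 0.02 and that of high minus low was -0.20, while that of anti-IL6R minus high was 0.60. Without low-difference replicate 2, the median of high minus low was -0.17. After another background correction, normexp, the 4 medians came to 0.15, 0.044, -0.0051 and 0.19 in the same order, with 49, 44, 40 and 54 of 80 genes above 0.

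**Figure D1:**
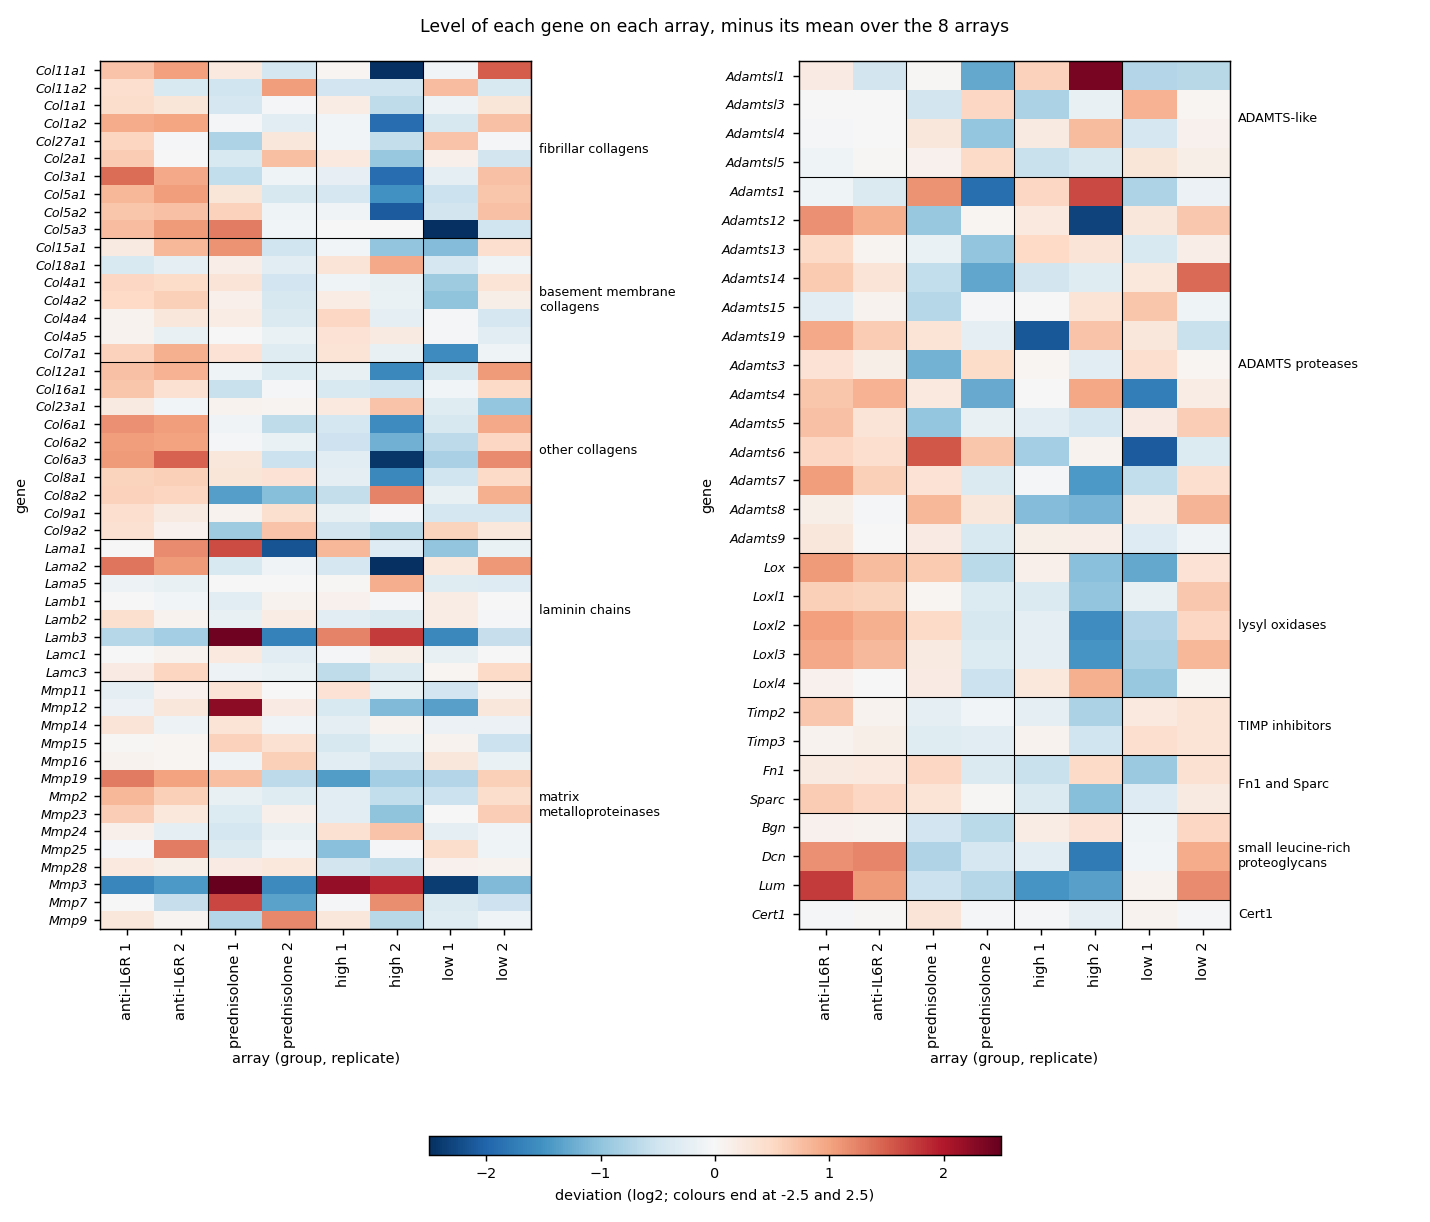
Each row is a gene and each column an array, ordered by group (anti-IL6R, prednisolone, high difference, low difference). Colour gives the log2 level minus the gene's mean over the 8 arrays, red above and blue below. Most interstitial collagens and lysyl oxidases are red on both anti-IL6R arrays and blue on high-difference replicate 2, whereas Mmp3 and Lamb3 are red on both high-difference arrays and on prednisolone replicate 1.

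The fibrillar collagens, which assemble into the cable-like fibres of the interstitium, shared 1 direction in anti-IL6R minus high-difference grafts. All 10 had a higher mean in anti-IL6R than in high-difference grafts, with a median difference of 1.36, and 9 of 10 did so without overlap between arrays. None of the 10 passed the adjusted threshold, and 4 of 10 had an unadjusted p under 0.05. Of all genes, 43.2% had a higher mean in that comparison, 23.5% did so without overlap and 7.09% did so with an unadjusted p under 0.05. Against prednisolone grafts, 9 of 10 were higher in anti-IL6R grafts, beside 48.1% of all genes, with a median difference of 0.55 within the same slide. High-difference replicate 2 was the lowest array for 7 of the 10, and the median of anti-IL6R minus high was 0.81 without that array and 1.86 without high-difference replicate 1.

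Col3a1, the chain of type III collagen, had levels of 4.69 and 4.24 on the anti-IL6R arrays, 2.67 and 3.19 on the prednisolone arrays, 3.08 and 1.39 on the high-difference arrays and 3.04 and 4.03 on the low-difference arrays. Both anti-IL6R arrays lay above the other 6, and high-difference replicate 2 lay below them. The difference was 2.23 ± 0.60 (adjusted p = 0.212) in anti-IL6R minus high-difference grafts and 1.54 ± 0.60 (adjusted p = 1.0) in anti-IL6R minus prednisolone grafts. Col1a2, one of the chains of type I collagen, had levels of 6.69 and 6.75 on the anti-IL6R arrays, 5.74 and 5.51 on the prednisolone arrays, 5.7 and 3.87 on the high-difference arrays and 5.37 and 6.49 on the low-difference arrays, again with both anti-IL6R arrays on top and high-difference replicate 2 lowest, and a difference of 1.94 ± 0.63 (adjusted p = 0.231) in anti-IL6R minus high-difference grafts. Without high-difference replicate 2 the difference in this comparison was 1.39 for Col3a1 and 1.03 for Col1a2. Its partner chain Col1a1, with which it forms type I collagen, had levels of 6.09 and 5.96 on the anti-IL6R arrays, 5.23 and 5.62 on the prednisolone arrays, 5.84 and 5.02 on the high-difference arrays and 5.53 and 5.95 on the low-difference arrays. For all of Col1a1, Col1a2 and Col3a1, high-difference replicate 1 lay within the range of the low-difference arrays. The difference of anti-IL6R minus high was only 0.59 ± 0.33 (adjusted p = 0.372) for Col1a1. Col1a1 had 2 further probes, and their differences in this comparison, 1.36 and 1.42, were larger than that of the brightest probe.

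Type V collagen sits inside type I fibrils and sets their width. Col5a1 had levels of 1.51 and 1.72 on the anti-IL6R arrays, 0.98 and 0.28 on the prednisolone arrays, 0.27 and -0.84 on the high-difference arrays and 0.13 and 1.37 on the low-difference arrays, and its anti-IL6R arrays were the highest of the 8. Col5a2 had levels of 2.72 and 2.76 on the anti-IL6R arrays, 2.59 and 1.93 on the prednisolone arrays, 1.94 and -0.06 on the high-difference arrays and 1.56 and 2.76 on the low-difference arrays. Low-difference replicate 2 reached the level of the anti-IL6R arrays for Col5a2, and high-difference replicate 2 stood apart below. Their differences in anti-IL6R minus high-difference grafts were 1.9 ± 0.53 (adjusted p = 0.216) and 1.8 ± 0.70 (adjusted p = 0.266). Col11a1, which nucleates thin fibrils, had levels of -0.63 and -0.32 on the anti-IL6R arrays, -1.1 and -1.78 on the prednisolone arrays, -1.28 and -4.38 on the high-difference arrays and -1.4 and 0.17 on the low-difference arrays, with high-difference replicate 2 far below the rest, and a difference of 2.35 ± 1.01 (adjusted p = 0.291) in anti-IL6R minus high. Col5a3 was the only fibrillar collagen with a higher mean in high-difference than in low-difference grafts, at 1.51 ± 0.71 (adjusted p = 0.361), and its lowest array was low-difference replicate 1 with -6.13.

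Type VI collagen forms beaded filaments around interstitial cells, and its 3 chains on the array ran in parallel. Col6a1 had levels of 2.43 and 2.32 on the anti-IL6R arrays, 1.21 and 0.65 on the prednisolone arrays, 0.84 and -0.29 on the high-difference arrays and 0.89 and 2.22 on the low-difference arrays, and its difference was 2.1 ± 0.54 (adjusted p = 0.203) in anti-IL6R minus high-difference and -1.28 ± 0.54 (adjusted p = 0.344) in high-difference minus low-difference grafts. Col6a2 had levels of -2.38 and -2.41 on the anti-IL6R arrays, -3.45 and -3.59 on the prednisolone arrays, -3.93 and -4.62 on the high-difference arrays and -4.07 and -2.91 on the low-difference arrays, and a difference of 1.88 ± 0.41 (adjusted p = 0.198) in anti-IL6R minus high, which was 0.83 with normexp. Col6a3 had levels of 0.86 and 1.27 on the anti-IL6R arrays, 0.08 and -0.74 on the prednisolone arrays, -0.47 and -2.65 on the high-difference arrays and -1.02 and 0.97 on the low-difference arrays and a difference of 2.62 ± 0.88 (adjusted p = 0.237). Both anti-IL6R arrays lay above every other array for Col6a1 and Col6a2, and for Col6a3 low-difference replicate 2 lay between them. In anti-IL6R minus prednisolone grafts the 3 differences were 1.45 ± 0.54, 1.13 ± 0.41 and 1.39 ± 0.88, each with an adjusted p of 1.0.

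Among the remaining non-fibrillar collagens, Col12a1 and Col16a1, which decorate the surface of fibrils, differed by 1.7 ± 0.60 (adjusted p = 0.245) and 0.98 ± 0.28 (adjusted p = 0.221) in anti-IL6R minus high-difference grafts, and Col8a1, a short-chain network collagen, by 1.5 ± 0.51 (adjusted p = 0.238). Col9a1 and Col9a2, known from cartilage, had differences of 0.45 ± 0.20 and 0.83 ± 0.49. Col23a1, a collagen anchored in the cell membrane, was not well above background on any untreated array, and its levels there were between -6.85 and -5.16, against -5.66 and -5.96 on the anti-IL6R arrays. Col8a2 was not well above background on either prednisolone array and was at least 1.19-fold brighter in anti-IL6R grafts. Over these collagens together with Col6a1, Col6a2 and Col6a3, 10 in all, the median difference was 1.24 in anti-IL6R minus high, 0.57 in prednisolone minus high, -0.85 in high minus low and 0.93 in anti-IL6R minus prednisolone.

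Decorin and lumican, small leucine-rich proteoglycans that bind collagen fibrils, followed the fibrillar collagens. Dcn had levels of 2.27 and 2.36 on the anti-IL6R arrays, 0.39 and 0.72 on the prednisolone arrays, 0.85 and -0.63 on the high-difference arrays and 1.07 and 2.06 on the low-difference arrays. Both anti-IL6R arrays were above the other 6, next to low-difference replicate 2, and the prednisolone arrays fell within the span of the high-difference pair. Its difference was 2.21 ± 0.53 (adjusted p = 0.198) in anti-IL6R minus high, 1.76 ± 0.53 (adjusted p = 1.0) in anti-IL6R minus prednisolone and -1.46 ± 0.53 (adjusted p = 0.322) in high minus low. Without high-difference replicate 2 the first and the last of these were 1.47 and -0.72. Lum had the smallest p of all 80 genes in 2 of the 4 comparisons. Its levels were -4.35 and -5.02 on the anti-IL6R arrays, -6.62 and -6.81 on the prednisolone arrays, -7.56 and -7.45 on the high-difference arrays and -6.0 and -4.91 on the low-difference arrays, and it was not well above background on any prednisolone or high-difference array. In processed signal it was at least 1.71-fold brighter in anti-IL6R than in high-difference grafts (adjusted p = 0.145) and at least 1.82-fold brighter than in prednisolone grafts (adjusted p = 0.959). Lum was kept only through groups where it is high, so it had to differ from these dim groups. With normexp the difference of Lum was 0.23 and 0.26 in these 2 comparisons, which is smaller than those bounds. Biglycan (Bgn), another proteoglycan of the family, behaved otherwise. Its levels were 7.33 and 7.32 on the anti-IL6R arrays, 6.76 and 6.56 on the prednisolone arrays, 7.41 and 7.59 on the high-difference arrays and 7.12 and 7.75 on the low-difference arrays, lowest on both prednisolone arrays, with a difference of -0.84 ± 0.25 (adjusted p = 0.351) in prednisolone minus high and 0.66 ± 0.25 (adjusted p = 1.0) in anti-IL6R minus prednisolone grafts.

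Sparc, a collagen-binding glycoprotein, had levels of 5.0 and 4.88 on the anti-IL6R arrays, 4.72 and 4.39 on the prednisolone arrays, 4.0 and 3.29 on the high-difference arrays and 4.03 and 4.6 on the low-difference arrays. Every anti-IL6R and prednisolone array lay above both high-difference arrays, with differences of 1.29 ± 0.31 (adjusted p = 0.198) and 0.90 ± 0.31 (adjusted p = 0.38). The second of these was 0.55 without high-difference replicate 2. Fibronectin (Fn1), the adhesive glycoprotein of provisional matrix, had levels of 5.16 and 5.17 on the anti-IL6R arrays, 5.45 and 4.56 on the prednisolone arrays, 4.37 and 5.4 on the high-difference arrays and 4.01 and 5.31 on the low-difference arrays. Its arrays overlapped in all 4 comparisons, and the largest difference of this brightest probe was 0.28 ± 0.55 (adjusted p = 0.803). The other measurable probe of Fn1 gave 0.57 in anti-IL6R minus high and 0.69 in anti-IL6R minus prednisolone. It gave 0.41 in high minus low and -0.12 in prednisolone minus high. Periostin (Postn), a matrix protein of activated fibroblasts, was not well above background on both arrays of any group and is given no difference.

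Of the 5 lysyl oxidases, 4 had higher means in anti-IL6R than in high-difference grafts without overlap, and all 5 had higher means in anti-IL6R than in prednisolone grafts. The corresponding shares of all genes were 23.5% and 48.1%. Loxl1, an enzyme needed for elastic fibres, had levels of 3.68 and 3.65 on the anti-IL6R arrays, 3.14 and 2.76 on the prednisolone arrays, 2.74 and 2.11 on the high-difference arrays and 2.92 and 3.78 on the low-difference arrays, and a difference of 1.24 ± 0.35 (adjusted p = 0.221) in anti-IL6R minus high. Loxl2, which acts on type IV collagen, differed by 1.84 ± 0.59 (adjusted p = 0.23) and Loxl3 by 1.72 ± 0.62 (adjusted p = 0.249). The other measurable probe of Loxl3 gave -0.15 in this comparison. Lox, the founding crosslinking enzyme, had levels of 1.19 and 0.92 on the anti-IL6R arrays, 0.78 and -0.56 on the prednisolone arrays, 0.25 and -0.93 on the high-difference arrays and -1.17 and 0.48 on the low-difference arrays and a difference of 1.4 ± 0.70 (adjusted p = 0.342), or 0.81 without high-difference replicate 2. Its means in high-difference and low-difference grafts were nearly equal, with low-difference replicate 1 the lowest array and replicate 2 among the middle ones. Loxl4 was the exception, with a difference of -0.52 ± 0.42 (adjusted p = 0.528) in anti-IL6R minus high and 1.03 ± 0.42 (adjusted p = 0.336) in high minus low.

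**Figure D2:**
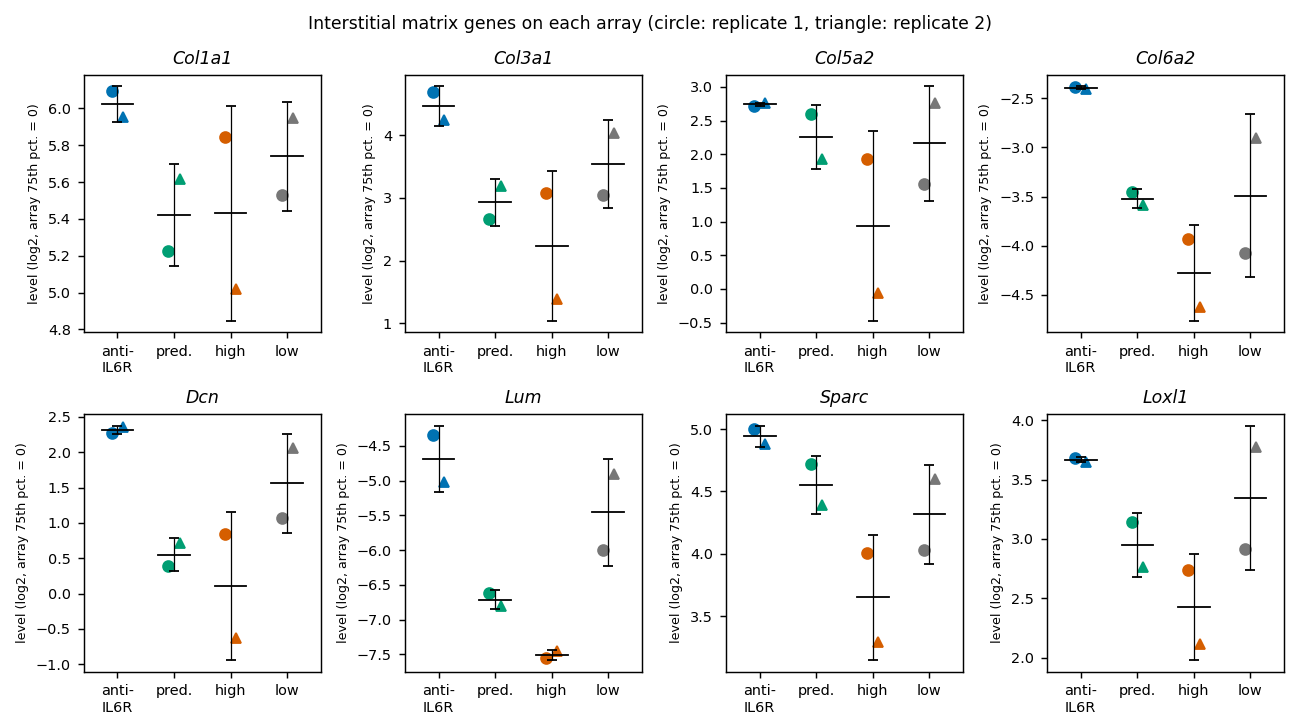
Log2 level of 8 interstitial matrix genes on each array (vertical axis, 0 is the array's 75th percentile), by group from left to right: anti-IL6R, prednisolone (pred.), high difference and low difference. Lines are group means and bars the SD of 2 arrays, which is wide for the high-difference and low-difference pairs. Both anti-IL6R arrays lie above both high-difference arrays in all 8 panels, and high-difference replicate 2 is the lowest of all points in 7 of them.

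The basement membrane collagens did not move as a group. In anti-IL6R minus high-difference grafts 5 of 7 were above 0 with a median of 0.53, and in prednisolone minus high 2 of 7 were above 0 with a median of -0.15. Of all genes, 43.2% and 42.4% were above 0 in these comparisons. Col4a1 and Col4a2 encode the 2 chains of the common type IV collagen network. Their genes lie head to head in the rat genome, and the RefSeq starts in the GRCr8 build are separated by 76 bases, of which 78.9% are G or C. The stretch between the 2 starts is printed on the strand of Col4a1, because both genes are transcribed outward from it.
Col4a1 and Col4a2 (chr16:84885521-84885596, + strand): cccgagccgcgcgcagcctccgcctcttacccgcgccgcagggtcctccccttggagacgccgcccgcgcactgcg
The levels of the pair ran in parallel. Col4a1 had 4.6 and 4.54 on the anti-IL6R arrays, 4.4 and 3.6 on the prednisolone arrays, 3.98 and 3.9 on the high-difference arrays and 3.19 and 4.42 on the low-difference arrays. Col4a2 had 0.17 and 0.26 on the anti-IL6R arrays, -0.20 and -0.73 on the prednisolone arrays, -0.14 and -0.50 on the high-difference arrays and -1.34 and -0.18 on the low-difference arrays. For both genes low-difference replicate 1 was the lowest array and the anti-IL6R arrays were the 2 highest. The difference in anti-IL6R minus high was 0.63 ± 0.44 (adjusted p = 0.468) for Col4a1 and 0.53 ± 0.41 (adjusted p = 0.502) for Col4a2. In high minus low, leaving out low-difference replicate 1 turned their differences to -0.48 and -0.14, against 0.13 ± 0.44 and 0.44 ± 0.41 with all arrays.

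Col18a1, the source of the endostatin fragment and a component of tubular and vascular basement membranes, went against the interstitial genes. Its levels were 3.5 and 3.67 on the anti-IL6R arrays, 4.05 and 3.6 on the prednisolone arrays, 4.2 and 4.84 on the high-difference arrays and 3.46 and 3.78 on the low-difference arrays, and both high-difference arrays were the highest of the 8. The difference was -0.93 ± 0.29 (adjusted p = 0.227) in anti-IL6R minus high, -0.69 ± 0.29 (adjusted p = 0.423) in prednisolone minus high and 0.90 ± 0.29 (adjusted p = 0.311) in high minus low. Without high-difference replicate 2 these were -0.62, -0.37 and 0.58. The related Col15a1 had a difference of 1.06 ± 0.71 (adjusted p = 0.452) in anti-IL6R minus high. Col4a4 and Col4a5, chains of the glomerular network, differed in that comparison by 0.05 ± 0.33 and -0.34 ± 0.20. The other measurable probe of Col4a5 gave 0.18 there. Col7a1, the anchoring fibril collagen, had its lowest level, -3.01, on low-difference replicate 1.

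The laminin chains split by type. Lamb3 encodes a beta chain known from the laminin that anchors stratified epithelium. Lamb3 had levels of 1.49 and 1.36 on the anti-IL6R arrays, 4.64 and 0.51 on the prednisolone arrays, 3.44 and 3.95 on the high-difference arrays and 0.59 and 1.63 on the low-difference arrays. The high-difference arrays and prednisolone replicate 1 stood above the other 5 arrays, and prednisolone replicate 2 was the lowest of all. The difference was 2.58 ± 1.21 (adjusted p = 0.363) in high minus low and -2.26 ± 1.21 (adjusted p = 0.363) in anti-IL6R minus high. The gap between the 2 prednisolone arrays was wider than any difference between group means of this chain. Of 2 further measurable probes of Lamb3, 1 also had prednisolone replicate 1 and both high-difference arrays on top, and the other did not, with no level below -1.09 or above 0. The 3 probes ranged between -2.26 and 0.53 in anti-IL6R minus high, so their signs differed, and between 0.08 and 2.58 in high minus low.

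Lama2, the alpha chain of muscle and mesenchymal basement membranes, differed in the same directions as most interstitial collagens. Its levels were 0.18 and -0.09 on the anti-IL6R arrays, -1.53 and -1.24 on the prednisolone arrays, -1.57 and -4.03 on the high-difference arrays and -0.90 and -0.07 on the low-difference arrays, with the anti-IL6R arrays among the top 3 and high-difference replicate 2 lowest. The difference was 2.85 ± 0.75 (adjusted p = 0.209) in anti-IL6R minus high and -2.31 ± 0.75 (adjusted p = 0.311) in high minus low for the brightest of 4 probes. The 4 probes ranged between 0.69 and 2.85 in the first comparison and between -2.31 and -0.84 in the other. Lama5, the alpha chain of mature tubular and glomerular basement membranes, had levels of 2.12 and 2.07 on the anti-IL6R arrays, 2.27 and 2.25 on the prednisolone arrays, 2.28 and 3.16 on the high-difference arrays and 1.96 and 1.93 on the low-difference arrays, with differences of -0.62 ± 0.29 (adjusted p = 0.319) in anti-IL6R minus high and 0.77 ± 0.29 (adjusted p = 0.324) in high minus low. Without high-difference replicate 2 these were -0.18 and 0.34, and a second probe gave -0.08 and 0.28. Lamb1 and Lamc1, chains shared by most laminins, hardly varied at their brightest probes: Lamb1 stayed between 1.12 and 1.57 and Lamc1 between -0.98 and -0.47 over the 8 arrays. The other measurable probe of Lamc1 differed by 0.60 in high minus low and -0.32 in anti-IL6R minus high. Its difference was -0.32 in prednisolone minus high and -0.0087 in anti-IL6R minus prednisolone. Lamb2, which replaces Lamb1 in the mature glomerulus, differed by 0.55 ± 0.22 (adjusted p = 0.274) in anti-IL6R minus high. Lama1, an embryonic chain kept in some tubules, spread from -5.93 to -2.14 on the 2 prednisolone arrays alone. Lamc3 was not well above background on the high-difference arrays and was at least 1.39-fold brighter in anti-IL6R grafts (adjusted p = 0.207).

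Stromelysin-1 (Mmp3), matrilysin (Mmp7), macrophage elastase (Mmp12) and stromelysin-2 (Mmp10) had their highest level of the 8 arrays on prednisolone replicate 1. Their genes lie on chromosome 8 of the rat. The 120 bases before the start of each gene are shown because all 4 hold the letters TGAGTCA, the element bound by AP-1 transcription factors, printed in capitals. Sequences are those of RefSeq in the GRCr8 build, written 5′ to 3′ on the strand of the gene.
Mmp3 (chr8:12925161-12925280, + strand): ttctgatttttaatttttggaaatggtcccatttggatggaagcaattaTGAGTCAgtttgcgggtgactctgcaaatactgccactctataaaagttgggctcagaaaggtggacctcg
Mmp7 (chr8:13132923-13133042, + strand): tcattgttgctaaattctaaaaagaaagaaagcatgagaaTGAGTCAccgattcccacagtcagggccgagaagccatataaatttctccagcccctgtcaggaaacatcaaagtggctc
Mmp12 (chr8:12866532-12866651, + strand): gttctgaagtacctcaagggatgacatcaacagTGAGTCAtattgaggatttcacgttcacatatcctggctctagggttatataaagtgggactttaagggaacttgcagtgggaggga
Mmp10 (chr8:12974587-12974706, + strand): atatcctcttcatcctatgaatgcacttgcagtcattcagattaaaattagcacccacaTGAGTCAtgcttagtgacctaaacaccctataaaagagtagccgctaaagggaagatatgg
Counted from the start of the gene, the element begins at position -71 in Mmp3, -80 in Mmp7, -87 in Mmp12 and -61 in Mmp10. TGAGTCA, on either strand within 250 bases before the start, occurred in 4.05% of 33469 rat promoters. Of the 80 measurable genes 59 had a promoter sequence, and 4 of these (6.78%) held the element, the fourth being Col6a1. Of the 17 genes too dim to test 12 had a promoter sequence, and Mmp1, Mmp10 and Mmp13 held the element. Col6a1 and Mmp13 had their highest levels elsewhere, on anti-IL6R replicate 1 and on high-difference replicate 2, and the highest array of Mmp1 is not given. Prednisolone replicate 1 was the highest array for 13 of the 80 genes, among them 5 of the 14 measurable MMPs, beside 12.2% of all genes. The 4 genes shown were chosen for sharing that array and the element. A match of letters is a description and does not show that the site is used.

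Mmp3, which cleaves proteoglycans, laminin and fibronectin and activates other MMPs, had levels of -7.31 and -7.1 on the anti-IL6R arrays, -1.65 and -7.27 on the prednisolone arrays, -3.47 and -3.79 on the high-difference arrays and -8.05 and -6.78 on the low-difference arrays. It stood well above background on the 2 high-difference arrays and on 1 prednisolone array, and on no anti-IL6R or low-difference array. It was at least 5.39-fold brighter in high-difference than in low-difference grafts (adjusted p = 0.347) and at least 5.75-fold brighter in high-difference than in anti-IL6R grafts (adjusted p = 0.308). Mmp3 was kept only through the high-difference group, where it is high, so it had to differ from the dim groups. With normexp its difference in anti-IL6R minus high was -1.37, which is smaller than that bound. With either prednisolone array left out of the fit, its adjusted p in that comparison was 0.0445, and no other of the 80 genes passed under any setting. Mmp7, secreted by injured tubular epithelium, had levels of -3.88 and -4.47 on the anti-IL6R arrays, -2.22 and -5.24 on the prednisolone arrays, -3.93 and -2.72 on the high-difference arrays and -4.25 and -4.41 on the low-difference arrays. Its high-difference arrays overlapped those of the anti-IL6R group, and the difference was 1.0 ± 0.94 (adjusted p = 0.595) in high minus low and -0.85 ± 0.94 (adjusted p = 0.648) in anti-IL6R minus high, against 0.40 and -0.24 without high-difference replicate 2. Mmp12, made by macrophages, had levels of -4.13 and -3.69 on the anti-IL6R arrays, -1.74 and -3.78 on the prednisolone arrays, -4.36 and -5.07 on the high-difference arrays and -5.33 and -3.7 on the low-difference arrays, and both prednisolone arrays lay above both high-difference arrays, with a difference of 1.96 ± 0.78 (adjusted p = 0.412). Mmp10 was well above background on too few arrays to be tested. It read -3.61 and -5.70 on the prednisolone arrays and between -8.64 and -7.62 on the other 6.

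**Figure D3:**
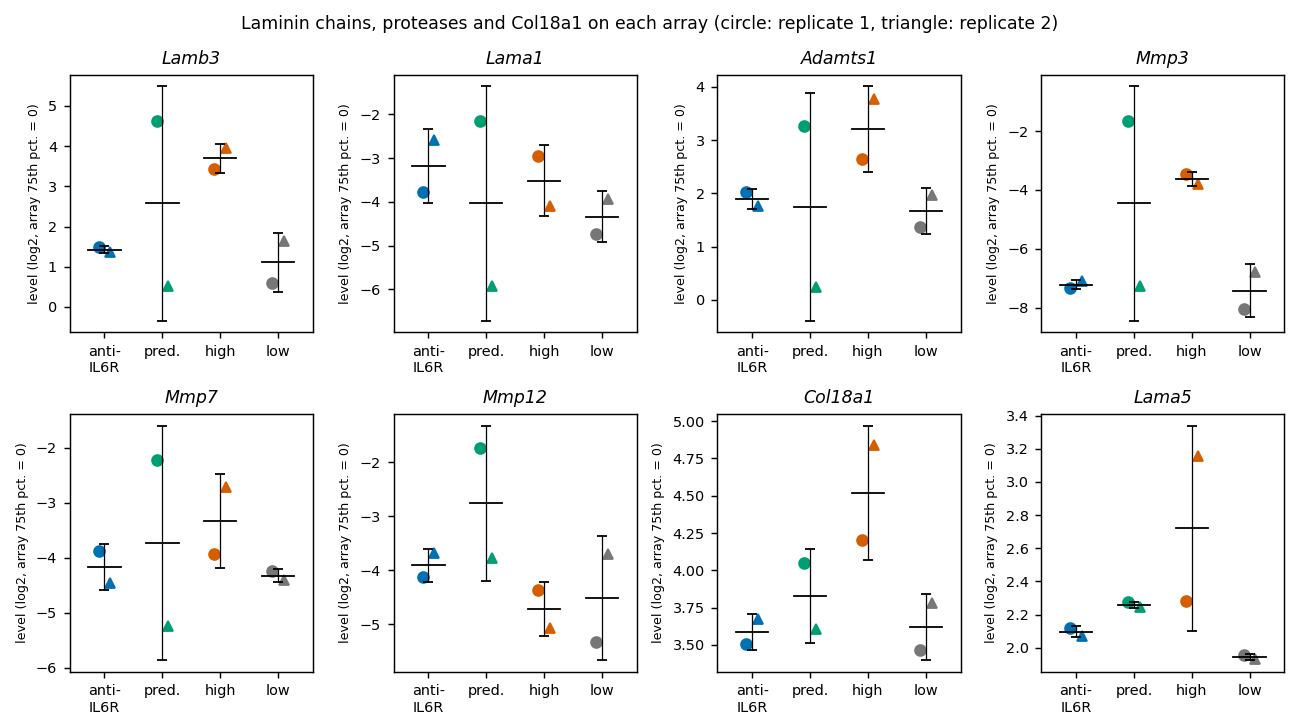
Log2 level on each array (vertical axis, 0 is the array's 75th percentile) of Lamb3, Lama1, Adamts1, Mmp3, Mmp7, Mmp12, Col18a1 and Lama5, by group from left to right: anti-IL6R, prednisolone (pred.), high difference and low difference. Lines are group means and bars the SD of 2 arrays. Prednisolone replicate 1 is far above replicate 2 for the first 6 genes, which gives that group its long SD bars.

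The gelatinases, which degrade denatured collagen and type IV collagen, differed from each other. Mmp2, a product of fibroblasts, had levels of 0.16 and -0.06 on the anti-IL6R arrays, -0.85 and -0.97 on the prednisolone arrays, -0.93 and -1.28 on the high-difference arrays and -1.2 and -0.23 on the low-difference arrays. Both anti-IL6R arrays were the highest of the 8, with a difference of 1.15 ± 0.34 (adjusted p = 0.222) in anti-IL6R minus high and 0.95 ± 0.34 (adjusted p = 1.0) in anti-IL6R minus prednisolone. The other measurable probe of Mmp2 gave -0.17 and 0.063 in these comparisons, and the mean over both probes 0.49 and 0.51. Mmp9, a product of leukocytes, had levels of -2.8 and -3.0 on the anti-IL6R arrays, -3.81 and -1.88 on the prednisolone arrays, -2.81 and -3.78 on the high-difference arrays and -3.38 and -3.18 on the low-difference arrays, and its arrays overlapped in all 4 comparisons. Mmp14, the membrane-bound activator of Mmp2, stayed between 2.61 and 3.18 on all 8 arrays. The other membrane-type enzymes were Mmp24, which was highest on both high-difference arrays with a difference of -0.85 ± 0.22 (adjusted p = 0.329) in prednisolone minus high, and Mmp15, with 0.76 ± 0.25 (adjusted p = 0.366), or 0.17 with normexp. Mmp16 had a difference of 0.62 ± 0.29 in that comparison, Mmp25 had 0.31 ± 0.52 and Mmp11 had 0.09 ± 0.30.

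Mmp28 (epilysin) varied little within groups. Its levels were -2.06 and -2.16 on the anti-IL6R arrays, -2.11 and -2.05 on the prednisolone arrays, -2.78 and -2.9 on the high-difference arrays and -2.21 and -2.22 on the low-difference arrays, and both high-difference arrays lay below the other 6. The differences were 0.72 ± 0.17 (adjusted p = 0.198) in anti-IL6R minus high, 0.76 ± 0.17 (adjusted p = 0.314) in prednisolone minus high and -0.62 ± 0.17 (adjusted p = 0.308) in high minus low. With normexp these were 0.44, 0.43 and -0.39. Mmp23 differed by 1.07 ± 0.35 (adjusted p = 0.233) in anti-IL6R minus high. Mmp19 was not well above background on the high-difference arrays and was at least 1.74-fold brighter in anti-IL6R grafts (adjusted p = 0.206). Over the 14 MMPs the median difference was 0.41 in anti-IL6R minus high and -0.04 in anti-IL6R minus prednisolone. The interstitial collagenase Mmp1 and also Mmp17, Mmp1b, Mmp20, Mmp21 and Mmp27 were not measurable. Mmp13, another collagenase, read -3.71 on high-difference replicate 2 and between -7.47 and -6.17 elsewhere.

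Adamts1, a proteoglycan-cleaving enzyme that is induced early after injury, varied like Lamb3. Its levels were 2.02 and 1.76 on the anti-IL6R arrays, 3.26 and 0.24 on the prednisolone arrays, 2.64 and 3.78 on the high-difference arrays and 1.36 and 1.97 on the low-difference arrays, with both high-difference arrays and prednisolone replicate 1 on top and prednisolone replicate 2 lowest. The difference was 1.54 ± 0.94 (adjusted p = 0.443) in high minus low and -1.32 ± 0.94 (adjusted p = 0.475) in anti-IL6R minus high, against 0.97 and -0.75 without high-difference replicate 2. In prednisolone minus high it was -1.46 ± 0.94 (adjusted p = 0.545), and 0.050 without prednisolone replicate 2. Adamts8, an enzyme known for slowing vessel growth, had the smallest p of all 80 genes in 2 comparisons. Its levels were -3.4 and -3.61 on the anti-IL6R arrays, -2.73 and -3.28 on the prednisolone arrays, -4.64 and -4.72 on the high-difference arrays and -3.38 and -2.71 on the low-difference arrays. Both high-difference arrays lay below the other 6, with differences of 1.67 ± 0.30 (adjusted p = 0.302) in prednisolone minus high and -1.63 ± 0.30 (adjusted p = 0.273) in high minus low. With normexp these 2 differences were 0.73 and -0.72.

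Among the aggrecan- and versican-cleaving relatives, Adamts5 had levels of -0.51 and -0.92 on the anti-IL6R arrays, -2.2 and -1.44 on the prednisolone arrays, -1.53 and -1.69 on the high-difference arrays and -1.04 and -0.64 on the low-difference arrays, with differences of 0.89 ± 0.31 (adjusted p = 0.245) in anti-IL6R minus high and 1.1 ± 0.31 (adjusted p = 1.0) in anti-IL6R minus prednisolone, the second of these 0.72 without prednisolone replicate 1. Adamts4 had a difference of 1.3 ± 0.75 (adjusted p = 1.0) in anti-IL6R minus prednisolone grafts, where its anti-IL6R arrays read -5.01 and -4.83 and its prednisolone arrays -5.47 and -6.97. Adamts9 stayed between 1.44 and 2.11 on all arrays. Adamts7 differed by 1.56 ± 0.57 (adjusted p = 0.254) in anti-IL6R minus high. Adamts14, a procollagen processing enzyme, was not well above background on the prednisolone arrays and was at least 1.3-fold brighter in anti-IL6R grafts, and Adamts12 was so by at least 2.6-fold. Both genes were kept only through the anti-IL6R and low-difference groups, where they are high, so they had to differ from the dim prednisolone group. With normexp the difference of Adamts14 in anti-IL6R minus prednisolone was 0.12, which is smaller than its bound. Adamts13, which cuts von Willebrand factor, was not well above background on any prednisolone or high-difference array. Adamts6 was not well above background on either untreated pair and was at least 1.73-fold brighter in prednisolone than in high-difference grafts (adjusted p = 0.424). Adamts3, Adamts15 and Adamts19 differed by 0.36 ± 0.51, -0.26 ± 0.36 and 1.5 ± 0.86 in anti-IL6R minus high.

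The ADAMTS-like proteins, which lack the protease domain and lie in the matrix, went in both directions. Adamtsl1 had levels of -4.48 and -5.15 on the anti-IL6R arrays, -4.65 and -5.97 on the prednisolone arrays, -4.1 and -2.32 on the high-difference arrays and -5.41 and -5.38 on the low-difference arrays, and both high-difference arrays were the highest of the 8. Its differences were -1.61 ± 0.67 (adjusted p = 0.282) in anti-IL6R minus high, -2.1 ± 0.67 (adjusted p = 0.363) in prednisolone minus high and 2.19 ± 0.67 (adjusted p = 0.308) in high minus low. Without high-difference replicate 2 these were -0.72, -1.21 and 1.3, and with normexp -1.05, -1.02 and 1.15. Adamtsl5 was lowest on both high-difference arrays, with 0.77 ± 0.20 (adjusted p = 0.329) in prednisolone minus high and -0.70 ± 0.20 (adjusted p = 0.308) in high minus low. Adamtsl3 and Adamtsl4 differed by -0.95 ± 0.43 and 0.67 ± 0.44 in high minus low.

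Both TIMPs chosen by the rule had lower means in high-difference than in low-difference grafts. Timp2, which inhibits MMPs and helps to activate Mmp2, had levels of 5.03 and 4.44 on the anti-IL6R arrays, 4.14 and 4.28 on the prednisolone arrays, 4.12 and 3.57 on the high-difference arrays and 4.6 and 4.7 on the low-difference arrays. The difference was -0.81 ± 0.28 (adjusted p = 0.316) in high minus low, or -0.53 without high-difference replicate 2, and 0.89 ± 0.28 (adjusted p = 0.227) in anti-IL6R minus high. Timp3, the matrix-bound inhibitor, had levels of 0.74 and 0.82 on the anti-IL6R arrays, 0.36 and 0.37 on the prednisolone arrays, 0.76 and 0.16 on the high-difference arrays and 1.09 and 1.0 on the low-difference arrays, with a difference of -0.58 ± 0.23 (adjusted p = 0.331) in high minus low, or -0.29 without high-difference replicate 2. Timp1, which the rule did not take, had levels of 4.25 and 4.99 on the anti-IL6R arrays, 5.13 and 2.77 on the prednisolone arrays, 4.85 and 5.99 on the high-difference arrays and 3.38 and 4.68 on the low-difference arrays. Its highest array was high-difference replicate 2 and its lowest was prednisolone replicate 2, as for Adamts1.

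**Figure D4:**
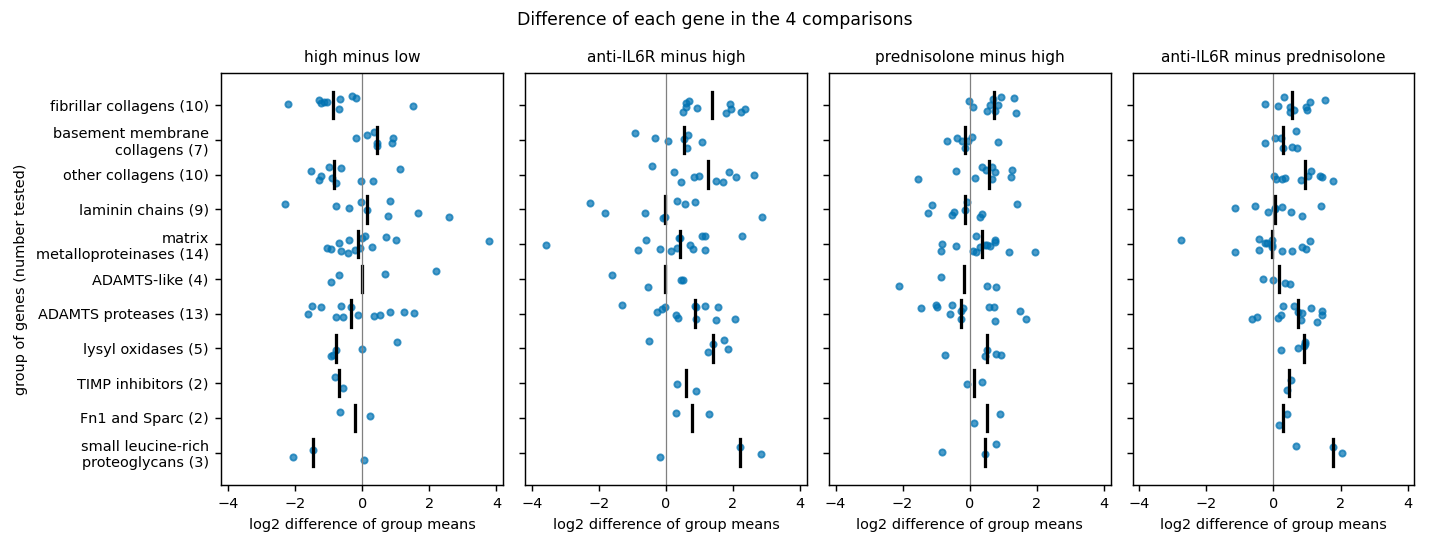
Each point is a gene, with the log2 difference of group means on the horizontal axis, and each row a group of genes with its number. The 4 panels are the 4 comparisons and the black bar is the median of the row. Fibrillar and other collagens, lysyl oxidases and small proteoglycans lie mostly right of 0 in anti-IL6R minus high and mostly left of 0 in high minus low, while the laminin chains straddle 0 in all 4 panels.

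Other matrix genes, which were listed by function and not by how they moved, gave the following counts at an adjusted p of 0.05: 0 of each list in each comparison. Among 27 measurable matrix glycoproteins and proteoglycans of a list of 31, 21 were above 0 in anti-IL6R minus high with a median of 0.78, and 5 were above 0 in high minus low with a median of -0.89. Of all genes, 43.2% and 56% were above 0 in these comparisons. Elastin (Eln) was at least 2.63-fold brighter in anti-IL6R than in high-difference grafts (adjusted p = 0.146), where it was not well above background. Prelp, a proteoglycan of the lumican family, differed by 2.13 ± 0.32 (adjusted p = 0.152) in anti-IL6R minus high and -1.98 ± 0.32 (adjusted p = 0.246) in high minus low. The 16 measurable collagen processing enzymes of 17 had medians of 0.02 in anti-IL6R minus high and 0.00 in high minus low, and the 18 measurable TGF-beta signalling genes of 19 had 0.01 and -0.01. The 13 measurable basement membrane partners of 17 had 0.21 and -0.01. The 17 other matrix-acting proteases and inhibitors of 22 had 0.06 and -0.05.

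Of 26 matrix receptors 19 were measurable, with a median of -0.35 in anti-IL6R minus high and 0.17 in high minus low. Itga3 and Itgb4, integrin chains of epithelial receptors for laminin, differed by -1.35 ± 0.41 (adjusted p = 0.225) and -0.98 ± 0.30 (adjusted p = 0.225) in anti-IL6R minus high. Itga11, a collagen receptor of fibroblasts, was not well above background on the high-difference arrays and was at least 1.15-fold brighter in anti-IL6R grafts (adjusted p = 0.171).

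Whole grafts were hybridised, so fewer cells of a type and less RNA per cell cannot be told apart, and markers of other cells differed between the same groups. Of all genes, 43.2% were above 0 in anti-IL6R minus high and 56% in high minus low. Of 15 measurable fibroblast, pericyte and smooth muscle markers of a list of 16, 14 were above 0 in anti-IL6R minus high with a median of 0.76, and 2 were above 0 in high minus low with a median of -0.50. Of 14 measurable endothelium markers of 15, 13 were above 0 in anti-IL6R minus high (median 0.69) and 2 in high minus low (-0.66). All 12 T and NK cell markers and all 11 measurable monocyte and macrophage markers were above 0 in anti-IL6R minus high, with medians of 2.28 and 2.27. In high minus low, 0 of the 12 T and NK cell markers were above 0 (median -1.51) and 1 of the 11 monocyte and macrophage markers was (-1.48), both farther from 0 than the median of the matrix genes. Cd163 was among the macrophage markers that were not measurable. Of 9 tubular injury markers 1 was above 0 in anti-IL6R minus high (median -0.96) and 8 in high minus low (0.82), and Havcr1 was not measurable. Nephron markers differed between these groups as well. All 10 proximal tubule markers were measurable, and 8 of them were above 0 in anti-IL6R minus high (median 1.31) and 2 in high minus low (-0.59). All 10 loop and distal nephron markers were above 0 in anti-IL6R minus high (median 1.01) and none in high minus low (-1.37). Of 8 podocyte markers, 4 were above 0 in anti-IL6R minus high (median 0.11) and 2 in high minus low (-0.27).

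The summed level of a list, with the 75th percentile of the array set to 1, shows the spread within groups. The fibroblast, pericyte and smooth muscle list summed to 98.7 and 104.9 on the anti-IL6R arrays, 120.1 and 81.1 on the prednisolone arrays, 103.1 and 124.0 on the high-difference arrays and 78.2 and 116.3 on the low-difference arrays. This sum did not separate the groups, although most of its genes had a higher mean in anti-IL6R than in high-difference grafts. The monocyte and macrophage list summed to 54.9 and 37.9 on the anti-IL6R arrays, 83.7 and 22.9 on the prednisolone arrays, 15.3 and 11.3 on the high-difference arrays and 27.3 and 44.8 on the low-difference arrays. Its highest array, prednisolone replicate 1, was also that of Mmp3, Mmp7 and Mmp12. The T and NK cell list summed to 2.77 and 2.06 on the anti-IL6R arrays, 2.38 and 0.841 on the prednisolone arrays, 0.694 and 0.638 on the high-difference arrays and 1.89 and 1.9 on the low-difference arrays. The tubular injury list summed to 305.4 and 452.5 on the anti-IL6R arrays, 491.4 and 268.6 on the prednisolone arrays, 521.5 and 1337 on the high-difference arrays and 341.6 and 606.3 on the low-difference arrays. Krt20, a keratin of injured tubules, had levels of -4.95 and -3.62 on the anti-IL6R arrays, -2.21 and -5.97 on the prednisolone arrays, -0.13 and -0.76 on the high-difference arrays and -5.68 and -6.31 on the low-difference arrays, with the same 3 arrays on top as for Lamb3 and Mmp3. The part of these cells, of the nephron segments and of tubular injury in the matrix results was not tested.

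**Figure D5:**
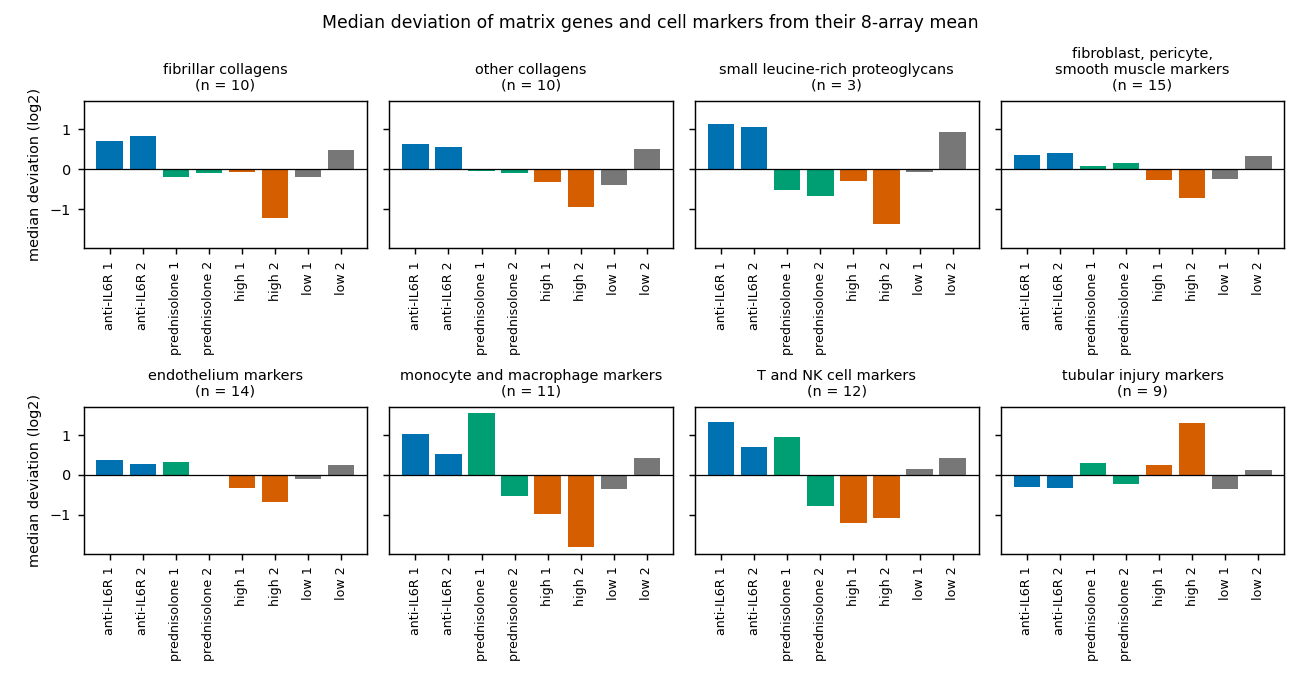
Bars give, for each array, the median over a list of the log2 level minus the gene's mean over the 8 arrays, for 3 groups of matrix genes and 5 lists of cell markers, with the number of genes above each panel. Arrays run from anti-IL6R over prednisolone and high difference to low difference. Fibrillar collagens are at 0.70 and 0.84 on the anti-IL6R arrays and at -0.07 and -1.23 on the high-difference arrays, and fibroblast markers at 0.35 and 0.41 on the anti-IL6R arrays and at -0.27 and -0.73 on the high-difference arrays.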

How the data were processed

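RNA of 8 allografts was labelled with Cy3 and hybridised to 1-colour Agilent arrays. Per the file headers, the deposited intensity is the processed signal of Feature Extraction, which is background-subtracted. A deposited table of the authors holds the same signals as intensity, scaled by 1 factor per array, and served as an alternative. After that factor, all probes with 1 spot lay within 0.01 of the scanner values on the log2 scale, apart from entries of 0 at non-uniform spots. Control and flagged spots were left out, log2 signals were set relative to the 75th percentile of each array, and the 28686 probes for which 1 group or more had both arrays well above background were kept. A gene was represented by its brightest probe. Differences were fitted with limma 3.58.1 in R 4.3.3 over all 8 arrays, without covariates, with Benjamini-Hochberg adjustment over 24462 genes and a threshold of 0.05. The fit was tested on simulated data. Where a group was not well above background, only a lower bound of the fold is given. It is a bound on the processed signal, and normexp gave smaller differences than the bounds of Lum, Mmp3 and Adamts14.

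The members and lists were chosen with earlier results of these data known. Per comparison, full values were given for the 5 genes each way with the smallest p among those without overlap, and for a list of followed genes. Alternatives were normexp (offset 50), quantile and median scaling, no filter, a stricter filter, the authors' table, the mean over probes, trend and robust variance, a replicate block, the 4 arrays compared alone, and each array left out. The number of arrays limits the precision. The values of 1 of the 80 genes are not reported here, although it is included in the counts and medians.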

Additional observations from a re-analysis of the deposited data

How the results depend on the processing

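No gene passed the adjusted threshold in the analysis reported, and no collagen, laminin, protease or related gene passed under any of the 10 processing alternatives. Quantile normalization called 3 genes in high minus low, 7 in anti-IL6R minus high, 4 in prednisolone minus high and 2 in anti-IL6R minus prednisolone, and median scaling called 1 in high minus low and 1 in anti-IL6R minus high. The median difference of the 80 genes with normexp was -0.0051 in high minus low, 0.15 in anti-IL6R minus high, 0.044 in prednisolone minus high and 0.19 in anti-IL6R minus prednisolone, and the cause was not tested. The alternatives gave 1172 values, made up of differences of named genes and of the number of the 80 genes above 0 in each comparison. Among them 25 changed sign, all of them differences of named genes. With normexp these were Lamc3 at 0.020, Mmp9 at 0.10 and Lox at -0.064 in high minus low, Lamb1 at 0.0077 in anti-IL6R minus high, Col1a1 at 0.062, Lamc1 at 0.022, Lum at -0.033 and Mmp14 at -0.016 in prednisolone minus high, Lamc1 at -0.065 and Mmp14 at 0.12 in anti-IL6R minus prednisolone. With quantile normalization these were Bgn at -0.089, Mmp9 at 0.0047, Mmp14 at -0.012 and Lox at -0.028 in high minus low, Lamb1 at 0.011, Lamc1 at 0.0053 and Bgn at 0.22 in anti-IL6R minus high, Col1a1 at 0.12 in prednisolone minus high, Mmp14 at 0.022 in anti-IL6R minus prednisolone. With median scaling these were Mmp9 at 0.016 in high minus low, Lamb1 at -0.020 and Lamc1 at -0.021 in anti-IL6R minus prednisolone. With the mean over the probes of a gene these were Mmp2 at 0.0079 in high minus low, Col1a1 at 0.24 and Mmp2 at -0.017 in prednisolone minus high.

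Leaving out each array in turn, with the remaining array of its group assumed to vary like the other groups, the number of genes called ranged from 0 to 39 in high minus low, 0 to 169 in anti-IL6R minus high, 0 to 224 in prednisolone minus high and 0 to 130 in anti-IL6R minus prednisolone. Among the 80 genes it was 0 to 1 in anti-IL6R minus high, the 1 being Mmp3, and 0 in the other comparisons. Their median difference ranged from -0.54 to -0.17 in high minus low, 0.59 to 0.73 in anti-IL6R minus high, 0.020 to 0.36 in prednisolone minus high and 0.41 to 0.67 in anti-IL6R minus prednisolone. Some followed genes changed sign without 1 array. In high minus low the ranges were -0.25 to 0.38 for Bgn, -0.72 to 0.10 for Col1a1, -0.48 to 0.75 for Col4a1, -0.14 to 1.03 for Col4a2, -0.42 to 0.88 for Fn1, -0.14 to 0.051 for Lamb1, -0.82 to 0.83 for Lox, -0.085 to 0.23 for Mmp14, -0.88 to 0.095 for Mmp2 and -0.50 to 0.47 for Mmp9. In anti-IL6R minus high the ranges were -0.23 to 0.80 for Fn1, -0.11 to 0.069 for Lamc1, -0.064 to 0.39 for Mmp14 and -0.095 to 0.88 for Mmp9. In prednisolone minus high the ranges were -2.97 to 0.050 for Adamts1, -0.42 to 0.40 for Col1a1, -0.073 to 1.75 for Col1a2, -0.15 to 1.54 for Col3a1, -0.33 to 0.46 for Col4a1, -0.41 to 0.12 for Col4a2, -0.29 to 1.19 for Dcn, -0.39 to 0.63 for Fn1, -0.31 to 0.037 for Lamb1, -0.33 to 0.18 for Lamc1, -0.22 to 1.12 for Lox, -0.013 to 0.40 for Mmp14, -1.91 to 1.104 for Mmp7, -0.52 to 1.41 for Mmp9 and -0.39 to 0.20 for Timp3. In anti-IL6R minus prednisolone the ranges were -1.37 to 1.65 for Adamts1, -0.28 to 0.61 for Fn1, -0.12 to 0.23 for Lamb1, -0.20 to 0.31 for Lamc1, -0.26 to 0.19 for Mmp14, -1.95 to 1.06 for Mmp7 and -1.02 to 0.91 for Mmp9.

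The deviations of samples with the same replicate number had correlations between -0.35 and 0.37, with both signs among the pairs of groups. With 2 arrays a group these correlations cannot decide whether the numbers pair the samples. The fit with the replicate number as a block called 0 genes in each comparison. With 2 arrays a group an exact permutation test of 1 gene cannot go below 0.33, and signals near background limit what can be said of the 20 genes that were not well above background on every array. Medians, counts above 0 and non-overlap counts under each alternative were added after seeing the data.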
